A study of Mus musculus with 12 samples.

Results

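The enzymes that remove acetyl groups from histones and those that add or remove methyl groups on histone lysines were measured in the hippocampus of mice of the MSN strain and of its ancestral stock, ICR. The set was a list of 48 mouse genes: zinc-dependent histone deacetylases, sirtuins, lysine methyltransferases and lysine demethylases. Each gene was read from the transcript cluster (the array's set of probes for a transcript) that the platform annotation pairs with that gene alone, and from the cluster with the highest mean where there were several. Such a cluster was found for 47 of the 48 genes, of 19938 genes with a single-gene cluster in all, and Suv39h1 is not analysed here. Gene symbols chose the members, and the brightest cluster was picked by its mean over the mice of both strains. The list itself was chosen with earlier results of these data known.

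MSN (Madison) mice are an inbred strain derived from outbred hsd:ICR animals, and ICR mice serve as the controls. Their forebears were selected for wheel running and then for maternal defense, and the colony was later kept with no selection before its manic phenotype was noticed, as the study's methods describe, although the sample labels call it selectively bred. Macrodissected hippocampi of 6 MSN and 6 ICR mice, all adult males, were each hybridized to 1 array, an Affymetrix Mouse Gene 1.0 ST. MSN is a single inbred strain, so a strain difference cannot be told apart from what became fixed in that strain by chance during breeding. Values are PLIER intensities on a linear scale, log2 fold changes are MSN minus ICR means of log2(intensity + 16), and P-values come from limma with Benjamini-Hochberg adjustment over 23410 clusters with a gene unless an exact permutation test is named.

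Histone deacetylases of the zinc-dependent kind (classes I, II and IV) and the sirtuins, which consume NAD, strip acetyl groups from lysines, and deacetylated chromatin is generally less open to transcription. Lysine methyltransferases write marks whose meaning depends on the position: methylated H3K4, H3K36 and H3K79 go with active genes, and methylated H3K9 and H3K27 with silent ones. The demethylases of the LSD and JmjC families erase them, and in the hippocampus several of these enzymes have been studied in learning, memory and the response to mood stabilizers.

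None of the 47 enzyme genes differed between the strains at an adjusted p under 0.05, where 0.777% of all tested clusters did, 0.303% with higher and 0.474% with lower values in MSN mice. At an unadjusted p under 0.05 there were 7 members, 14.9% of them, against 12.7% of all clusters, so that share lies near the background. By the exact permutation test of each gene, 11 of the 47 had an unadjusted p under 0.05, a larger share than the 12.4% of all clusters. Besides the 7 from limma these were Kdm1b, Dot1l, Setd2 and Kdm4c, all with lower MSN means. Their exact permutation p was 0.0173, 0.0238, 0.0433 and 0.0498. The 7 from limma were Hdac10, Hdac8, Sirt1, Kmt2e and Kdm5a, with lower MSN means, and Setd7 and Kdm4b, with higher ones. The members with lower means made up 10.6% of the set against 7.5% of all clusters, and those with higher means made up 4.26% against 5.18%. No member had values without overlap between the strains, which 1.44% of all clusters had.

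**Figure D1:**
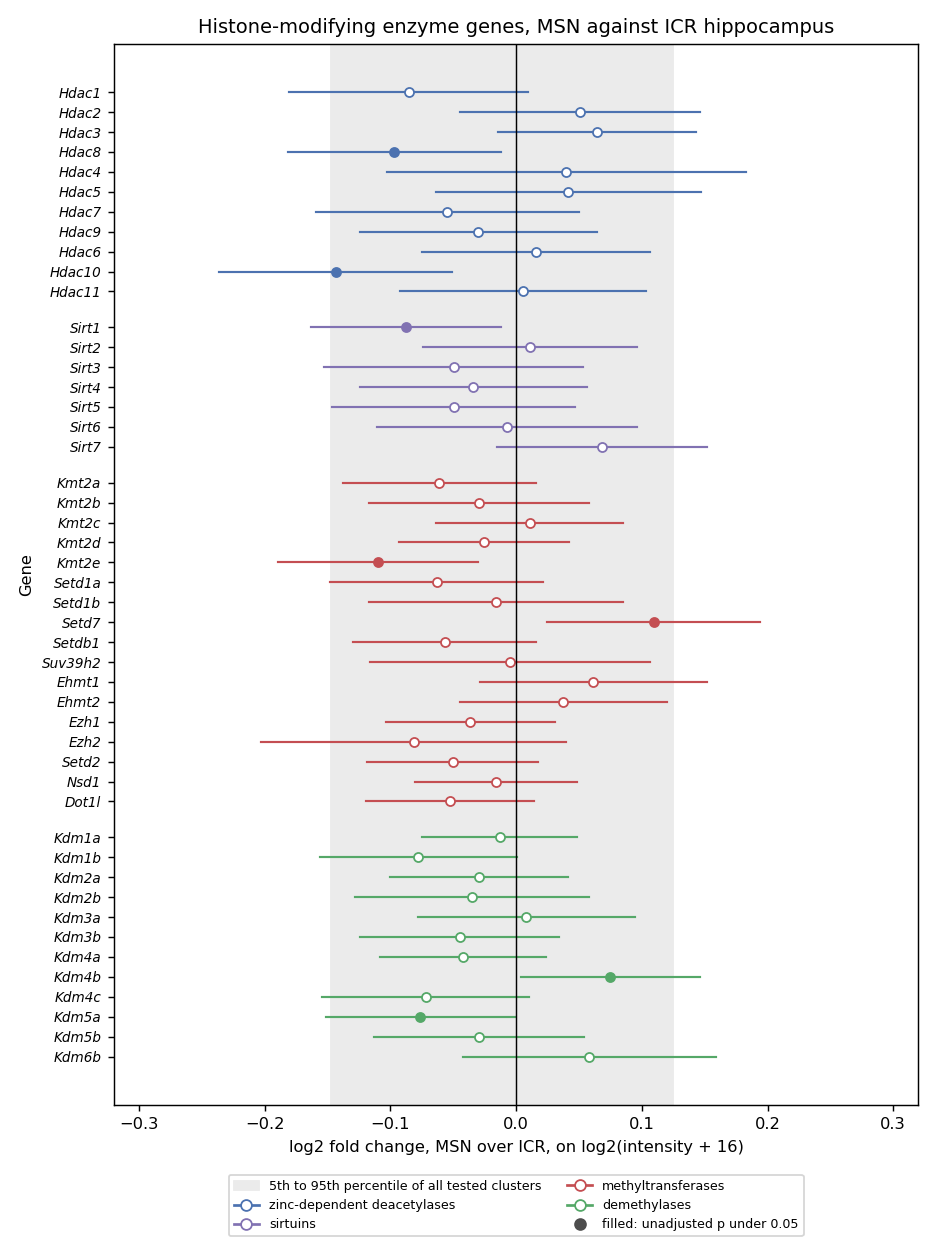
Log2 fold change (MSN minus ICR, log2(intensity + 16)) of the 47 measured enzyme genes, grouped by family, with horizontal lines for the 95% confidence interval. Filled points have an unadjusted p under 0.05, and the grey band spans the 5th to 95th percentile of all clusters with a gene: every member lies inside it, from -0.14 for Hdac10 to 0.11 for Setd7.

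The differences were small and closely bounded. Log2 fold changes of the members ran from -0.14 to 0.11, and their median size was 0.050 against 0.047 over all clusters. Every 95% interval lay within 0.25 of 0 on the log2 scale, and 45 of the 47 lay within 0.2. Their standard errors had a median of 0.040, against 0.051 over all clusters, and 42 of the 47 had a mean above the median of the array. Below 0 were 32 members and above it 15, which puts 68.1% of them below 0 against 54.5% of all clusters. Scaling each array to the same median left 26 of 47 members below 0, a larger share than the 40.5% of all clusters. The median of all clusters then moved from -0.0079 to 0.017. Quantile normalization left 31 of 47 members below 0, again a larger share than the 44.6% of all clusters. The median was then -0.024 for the members and 0.0091 for all clusters.

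The libraries were alike in depth of signal. Array medians over clusters with a gene were 373 to 389, and pairs of arrays had correlations of 0.992 to 0.997 if from the same strain and 0.992 to 0.996 if not. Markers of neurons, dentate granule cells and CA1 and CA3 pyramidal cells had mean intensities of 432 or more, and none was at 0. Among the 4 markers of tissues other than brain, Alb, Myh6 and Sftpc had means of 103 to 125. Ins2 had 321 in MSN and 320 in ICR mice. Means of Hdac10 (310 and 344) and Kdm1b (316 and 334) lay near those of Ins2. Sirt5 (259 and 268) and Suv39h2 (166 in both strains) lay below Ins2, so these members are dim. Of 39 markers of brain and other cell types measured, 2 differed at an adjusted p under 0.05, where 0.777% of all tested clusters did. They were Bok, a CA3 marker, with a log2 fold change of 0.36 (adjusted p = 0.0305), and Pdgfra, of oligodendrocyte precursors, with 0.26 (adjusted p = 0.0184). At an unadjusted p under 0.05 there were 11 of the 39 markers, or 28.2%, against 12.7% of all clusters. The summed intensity of the 4 astrocyte markers was 11712 to 12880 in MSN and 13296 to 14500 in ICR mice, without overlap. Most of that sum was Slc1a2, with means of 8372 in MSN and 9030 in ICR mice. It alone of the 4 had no overlap by itself, with 8765 the highest in MSN and 8766 the lowest in ICR mice. None of the 4 passed the adjusted threshold, though all 4 had an unadjusted p under 0.05. Gfap had a log2 fold change of -0.30 and Aqp4 of -0.23 (adjusted p = 0.101 and 0.148). For both, all 6 MSN mice lay below the ICR median. Slc1a2 had -0.11, and Aldh1l1 stood apart from the others with a positive value, 0.19. Summed neuron markers overlapped, at 28544 to 30077 in MSN and 29100 to 31605 in ICR mice. Choroid plexus markers varied widely within each strain, with sums of 8566 to 20548 in MSN and 7095 to 20372 in ICR mice. All 4 of them had log2 fold changes above 0, and none passed the adjusted threshold. In whole tissue, fewer cells of a type and less RNA per cell cannot be told apart. The part of astrocyte or choroid plexus content in the values of the enzymes was not tested.

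Promoter windows of 250 bases before the annotated start (RefSeq, GRCm38.p6) were found for 35 of the 47 members. Windows with over 50% G and C and a ratio of observed to expected CpG over 0.6, here called CpG-rich, belonged to 29 members, or 82.9%, against 48.1% of the 15614 array genes that have a window. The member windows held a median of 19.5 CpG dinucleotides, with a range of 0 to 48, and those of all array genes 11. CpG dinucleotides are the sites of DNA methylation in mammals, and promoters of genes active in most tissues are often rich in them. Windows of 4 enzymes described below are printed 5′ to 3′ on the minus strand, which is the strand of each gene, to show a dense, a middling and a sparse case, with each CG in capitals.
Sirt1, chr10:63339036-63339285: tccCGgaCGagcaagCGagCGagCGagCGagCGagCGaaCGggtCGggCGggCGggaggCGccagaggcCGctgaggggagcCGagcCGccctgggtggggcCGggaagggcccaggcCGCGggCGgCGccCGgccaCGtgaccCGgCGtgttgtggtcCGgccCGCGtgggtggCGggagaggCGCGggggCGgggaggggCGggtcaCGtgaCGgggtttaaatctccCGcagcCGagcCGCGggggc
Ezh2, chr6:47595031-47595280: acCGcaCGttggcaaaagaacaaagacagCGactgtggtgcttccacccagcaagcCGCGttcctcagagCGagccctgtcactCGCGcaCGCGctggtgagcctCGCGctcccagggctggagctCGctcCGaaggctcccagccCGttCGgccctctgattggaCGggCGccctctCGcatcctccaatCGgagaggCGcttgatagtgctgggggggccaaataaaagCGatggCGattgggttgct
Setd7, chr3:51560824-51561073: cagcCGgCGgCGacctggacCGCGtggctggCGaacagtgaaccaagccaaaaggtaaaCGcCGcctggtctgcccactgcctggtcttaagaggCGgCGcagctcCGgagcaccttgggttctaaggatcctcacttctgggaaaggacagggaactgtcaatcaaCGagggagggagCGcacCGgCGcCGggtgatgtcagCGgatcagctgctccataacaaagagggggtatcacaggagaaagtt
Hdac8, chrX:102505159-102505408: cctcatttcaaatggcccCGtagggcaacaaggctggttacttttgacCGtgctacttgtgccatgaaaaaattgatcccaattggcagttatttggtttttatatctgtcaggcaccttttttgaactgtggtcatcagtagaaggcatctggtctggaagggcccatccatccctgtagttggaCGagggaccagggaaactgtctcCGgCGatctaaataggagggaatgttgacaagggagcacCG
The Sirt1 window held 39 CG pairs, that of Ezh2 23 and that of Setd7 17. The Hdac8 window held 6 and, at 48.4% G and C, was the one of the 4 outside the CpG-rich class. The search was for the letters CG, which read the same on both strands, and a count of them says nothing about methylation in these mice.

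Zinc-dependent deacetylases numbered 11, all measured. Their log2 fold changes had a median of 0.0056, with 6 above and 5 below 0, and 2 had an unadjusted p under 0.05. That median ran from -0.010 to 0.021 when a mouse was left out, so its sign was not stable. When arrays were scaled to the same median it was 0.032, and the median of all clusters moved from -0.0079 to 0.017. Hdac10 (chromosome 15), a class IIb enzyme known as a polyamine deacetylase, had the lowest fold change among the members. Its intensity was 282 at the lowest, 311 at the median and 335 at the highest in MSN mice, against 323, 343 and 363 in ICR mice. These values lie near those of Ins2, the marker of another tissue given above. Of the 6 MSN mice, 5 lay below every ICR mouse. The log2 fold change was -0.14 (95% interval -0.24 to -0.051, adjusted p = 0.163), or 0.905 as a ratio of MSN to ICR, and the two-sided exact permutation p was 0.0065, where 0.00216 is the smallest that 6 against 6 mice can give. Hdac6, the other class IIb enzyme and a cytoplasmic deacetylase of tubulin, was at 0.016 (adjusted p = 0.909).

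Hdac8, a class I deacetylase encoded on chromosome X that acts on cohesin, was the other zinc-dependent enzyme with an unadjusted p under 0.05. Its MSN intensities were 471, 488 and 507 at the lowest, median and highest, and those of ICR mice 473, 533 and 552. All 6 MSN mice lay below the ICR median, but the lowest ICR mouse fell among them. The log2 fold change was -0.097 (95% interval -0.18 to -0.012, adjusted p = 0.317, exact permutation p = 0.0303). Hdac1, a catalytic subunit of the Sin3, NuRD and CoREST corepressors, had -0.085 (95% interval -0.18 to 0.0098, adjusted p = 0.451). A further cluster that the annotation pairs with Hdac1 gave -0.084 (adjusted p = 0.502), and where its probes lie on the genome was not checked. Class IIa enzymes, which shuttle between nucleus and cytoplasm with neuronal activity, had 2 values above and 2 below 0. Among them Hdac5 had 0.041 (adjusted p = 0.771) and Hdac7 -0.055 (adjusted p = 0.693). Hdac11, the class IV enzyme, had 0.0056 (adjusted p = 0.976).

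**Figure D2:**
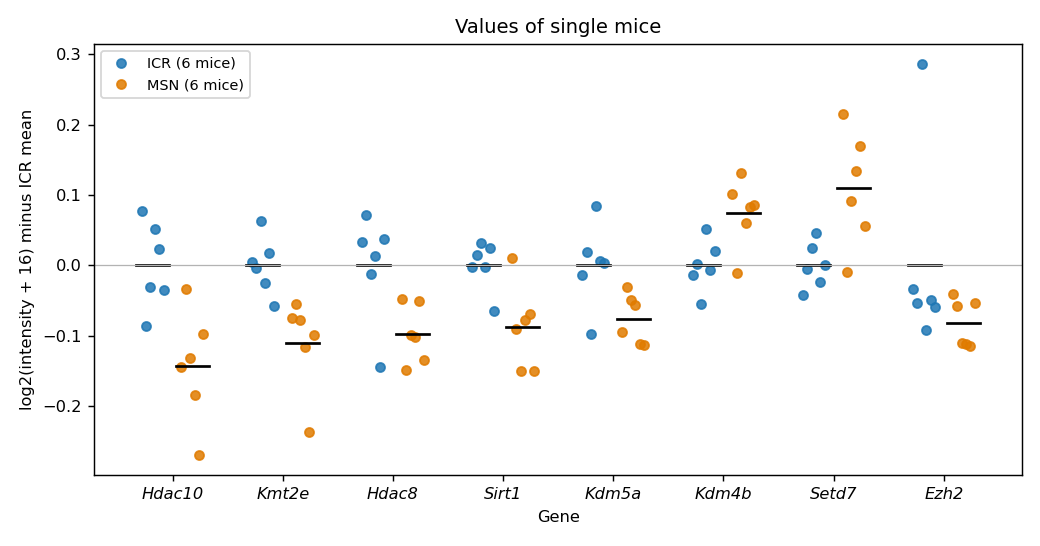
Log2(intensity + 16) of each mouse minus the mean of the 6 ICR mice, for the 7 enzymes with an unadjusted p under 0.05 and Ezh2, with points for mice and bars for strain means. The strains overlap in every gene, 5 of 6 MSN mice lie below all ICR mice for Hdac10, Kmt2e and Sirt1, and 5 of 6 lie above all of them for Setd7 and Kdm4b.

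Sirtuins were 7, of which 5 had values below 0 and 2 above, with a median log2 fold change of -0.034. It was -0.0086 when arrays were scaled to the same median, where the median of all clusters was 0.017. Sirt1 (chromosome 10), a nuclear deacetylase of histones and transcription factors with a known part in synaptic plasticity, was the one with an unadjusted p under 0.05. Its MSN intensities were 857, 899 and 960 at the lowest, median and highest, and those of ICR mice 910, 957 and 975. Again 5 of 6 MSN mice were below every ICR mouse, and the highest MSN mouse lay within the ICR values. The log2 fold change was -0.088 (95% interval -0.16 to -0.012, adjusted p = 0.309, exact permutation p = 0.0173). Sirt7, a nucleolar sirtuin, had 0.068 (95% interval -0.015 to 0.15, adjusted p = 0.504).

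Of 18 lysine methyltransferases 17 were measured, with a median log2 fold change of -0.030, 4 above and 13 below 0. The median was -0.0038 when each array was scaled to the same median, where that of all clusters was 0.017. Kmt2e (chromosome 5), a SET-domain protein of the H3K4 family that binds methylated H3K4 and for which little or no enzyme activity is known, had MSN intensities of 2107, 2337 and 2392 at the lowest, median and highest. In ICR mice they were 2388, 2487 and 2597, and 5 of 6 MSN mice lay below all of these. Its log2 fold change was -0.11 (95% interval -0.19 to -0.030, adjusted p = 0.222, exact permutation p = 0.0043). Setd7 (chromosome 3), which places a single methyl group on H3K4 and on several non-histone proteins, had the highest value of the set. MSN intensities were 1713, 1865 and 2004 at the lowest, median and highest, and ICR intensities 1674, 1721 and 1779. Here 5 of 6 MSN mice were above all ICR mice, and the log2 fold change was 0.11 (95% interval 0.025 to 0.19, adjusted p = 0.259, exact permutation p = 0.0130). Kmt2c, a large enzyme that marks enhancers, had 0.011 (adjusted p = 0.925).

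Writers of the silent marks had log2 fold changes on both sides of 0. Setdb1, which trimethylates H3K9 at retroelements, was at -0.057 (95% interval -0.13 to 0.016), and Ehmt1, which dimethylates H3K9, at 0.061 (adjusted p = 0.591). Ezh2, the H3K27 methyltransferase of Polycomb repressive complex PRC2, had MSN intensities of 1219, 1246 and 1285 at the lowest, median and highest and ICR intensities of 1240, 1275 and 1616. A single ICR mouse, replicate 3, supplied the value of 1616, while the others were 1240 to 1291. With all mice the log2 fold change was -0.081 (95% interval -0.20 to 0.040, adjusted p = 0.596), and without that mouse it was -0.024 (adjusted p = 0.793). Ezh1, its paralog, had -0.036 (adjusted p = 0.683). The H3K36 writers Setd2 and Nsd1 had -0.050 and -0.016 (adjusted p = 0.548 and 0.866), and Dot1l, the H3K79 writer, had -0.052 (95% interval -0.12 to 0.014, adjusted p = 0.519).

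The 12 demethylases had a median log2 fold change of -0.032, with 3 above and 9 below 0. It was -0.0066 when arrays were scaled to the same median, where the median of all clusters was 0.017. Kdm5a (chromosome 6), a JmjC enzyme that removes methyl groups from H3K4, had MSN intensities of 670, 688 and 710 at the lowest, median and highest and ICR intensities of 677, 728 and 770. All 6 MSN mice were below the ICR median and 2 were below every ICR mouse. The log2 fold change was -0.076 (95% interval -0.15 to -0.0011, adjusted p = 0.385, exact permutation p = 0.0260). Kdm4b (chromosome 17), an eraser of H3K9 methylation, had 850, 909 and 939 in MSN mice and 824, 855 and 888 in ICR mice. Its log2 fold change was 0.075 (95% interval 0.0040 to 0.15, adjusted p = 0.362, exact permutation p = 0.0173), and 5 of 6 MSN mice exceeded all ICR mice. Kdm4c, its relative with the same substrate, had a value of the opposite sign, -0.072 (adjusted p = 0.465). The flavin-dependent enzymes Kdm1a and Kdm1b had -0.013 (adjusted p = 0.888) and -0.078 (95% interval -0.16 to 0.00078, adjusted p = 0.400), and Kdm6b, an H3K27 eraser induced by many signals, had 0.058 (adjusted p = 0.661). Of the other named demethylases Kdm2a was at -0.030, Kdm2b at -0.035, Kdm3a at 0.0080, Kdm3b at -0.045 and Kdm5b at -0.030, and adjusted p of 0.667 or above.

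Writers and erasers of each mark were then set side by side. The 8 H3K4 writers had a median log2 fold change of -0.028 and the 4 H3K4 erasers -0.053, with all 4 erasers below 0. Counted among the 8 is Kmt2e, at -0.11, for which little or no enzyme activity is known. For H3K9 the 4 measured writers had a median of 0.016 and the 5 erasers -0.042. Both H3K27 writers were below 0 and Kdm6b above it, while both H3K36 writers and both KDM2 enzymes were below 0, with medians of -0.033 and -0.032. Each eraser was counted under a single mark, the KDM4 enzymes under H3K9 only, so the groups depend on that assignment. No p-value was computed for these groups, since the members are not replicates of a strain.

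**Figure D3:**
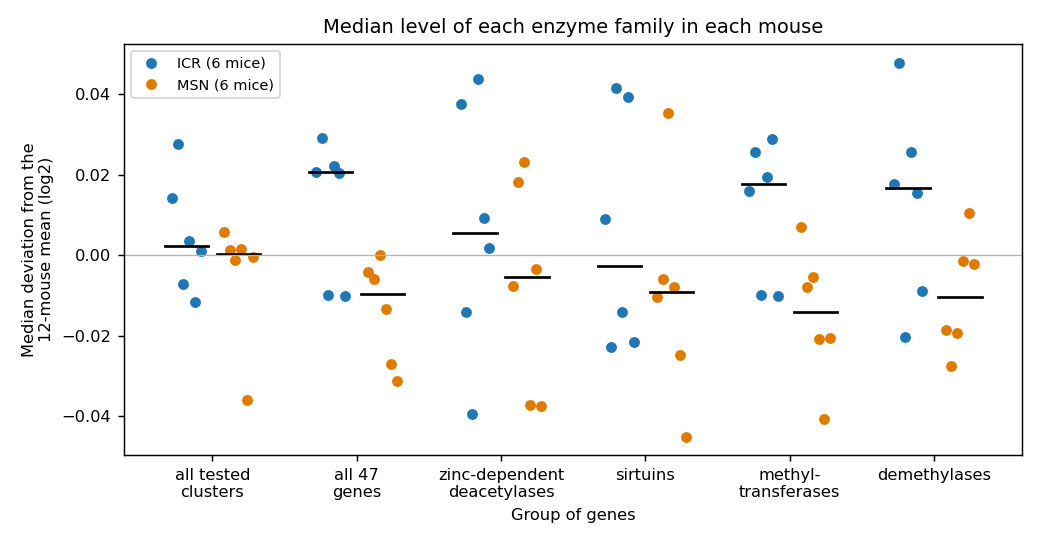
Median over the members of each enzyme family of a mouse's log2(intensity + 16) minus the mean of the 12 mice, beside the same median over all clusters, with 1 point per mouse and a bar at the median of 6 mice. The MSN and ICR mice overlap in each family, and all members together span -0.031 to -0.000053 in MSN and -0.010 to 0.029 in ICR mice.

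The members were also summarized in each mouse. The median deviation of the 47 members from the mean of the 12 mice ran from -0.031 to -0.000053 in MSN mice and from -0.010 to 0.029 in ICR mice, and the ranges overlapped. Over all clusters the same medians were -0.036 to 0.0056 in MSN and -0.012 to 0.028 in ICR mice. The middle of the 6 mice was -0.0097 in MSN and 0.021 in ICR mice for the members, and 0.00034 and 0.0022 over all clusters, where the lowest value, -0.036, was that of MSN replicate 5. Deacetylases of the zinc-dependent kind spanned -0.037 to 0.023 in MSN and -0.040 to 0.044 in ICR mice, and demethylases -0.028 to 0.010 and -0.020 to 0.048.

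MSN mice are inbred and ICR mice outbred, so the spread between mice was described as well. The SD of log2 values was higher in ICR mice for 26 of the 47 members, or 55.3%, against 49.97% of all clusters. Its median over the members was 0.056 in MSN and 0.064 in ICR mice, and over all clusters 0.087 and 0.086. Ezh2, with an SD of 0.034 in MSN and 0.14 in ICR mice, had the highest ratio of ICR to MSN, 4.11, which was 0.618 without ICR replicate 3. Kmt2c, whose MSN mice spanned only 1675 to 1733 while ICR mice spanned 1587 to 1819, had a ratio of 3.56. Hdac11 had 3.21, with MSN mice at 1327 to 1410 and ICR mice at 1237 to 1514. In the other direction stood Setd7 and Kdm1b, with ratios of MSN to ICR of 2.56 and 2.28. Ratios of ICR to MSN over 3 were found for 3 of the 47 members and for 2.60% of all clusters.

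**Figure D4:**
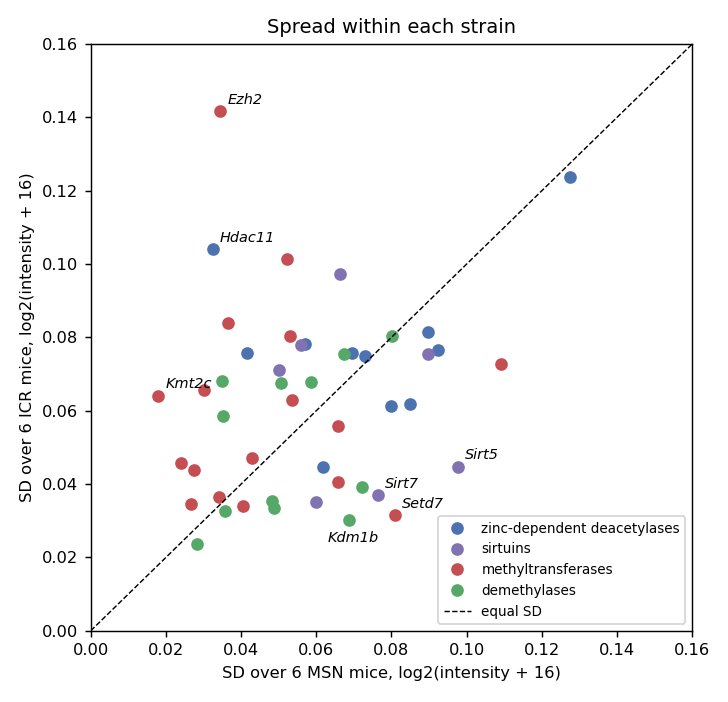
SD of log2(intensity + 16) over the 6 ICR mice (vertical) against that over the 6 MSN mice (horizontal) for each of the 47 members, coloured by family, with a dashed line at equal SD. Points lie on both sides of the line, 26 above it, and Ezh2, at 0.034 and 0.14, is the farthest from it.

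The partners and counterparts of these enzymes were counted in the same way. From 8 lists of 125 genes in all, 121 were measured, 0 passed the adjusted threshold, and 13 had an unadjusted p under 0.05 (10.7% against 12.7% of all clusters), 3 higher and 10 lower. The 15 histone acetyltransferases, which oppose the deacetylases, had a median log2 fold change of 0.0073, with 8 above and 7 below 0. Their 2 members with an unadjusted p under 0.05 both had higher MSN means: Ncoa3, a steroid receptor coactivator, at 0.094 (adjusted p = 0.297), and Kat2a, the catalytic subunit of SAGA, at 0.081 (adjusted p = 0.301). The 30 measured subunits of HDAC corepressors divided evenly, 15 above and 15 below 0. The 13 subunits of COMPASS, which carries some of the H3K4 writers, had 5 above and 8 below 0. The 8 of PRC2 had 1 above and 7 below, with a median of -0.027 and no unadjusted p under 0.05. Arginine methyltransferases, 9 in number, also had none under 0.05. The other lysine methyltransferases (20 measured), other demethylases (15) and partners of H3K9 methylation (11) each had 2 members with an unadjusted p under 0.05, all with lower MSN means.

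Among these partner genes 2 had no overlap between the strains. Smyd3, a lysine methyltransferase with substrates in the cytoplasm, had intensities of 746, 781 and 830 at the lowest, median and highest in MSN mice and 835, 883 and 954 in ICR mice. The log2 fold change was -0.18 with an adjusted p of 0.0555, just over the threshold, and the exact permutation p was 0.00216. Smyd3 passed under 5 of the other settings tried, as given in the closing section. Gatad2a, a subunit of the NuRD deacetylase complex, had 553, 564 and 570 in MSN mice and 499, 520 and 550 in ICR mice, with a log2 fold change of 0.11 (adjusted p = 0.139). Sap130, of the Sin3 complex, had the lowest value in the lists, -0.26 (adjusted p = 0.159), with ICR mice spread from 1542 to 2128 and MSN mice from 1441 to 1567.

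**Figure D5:**
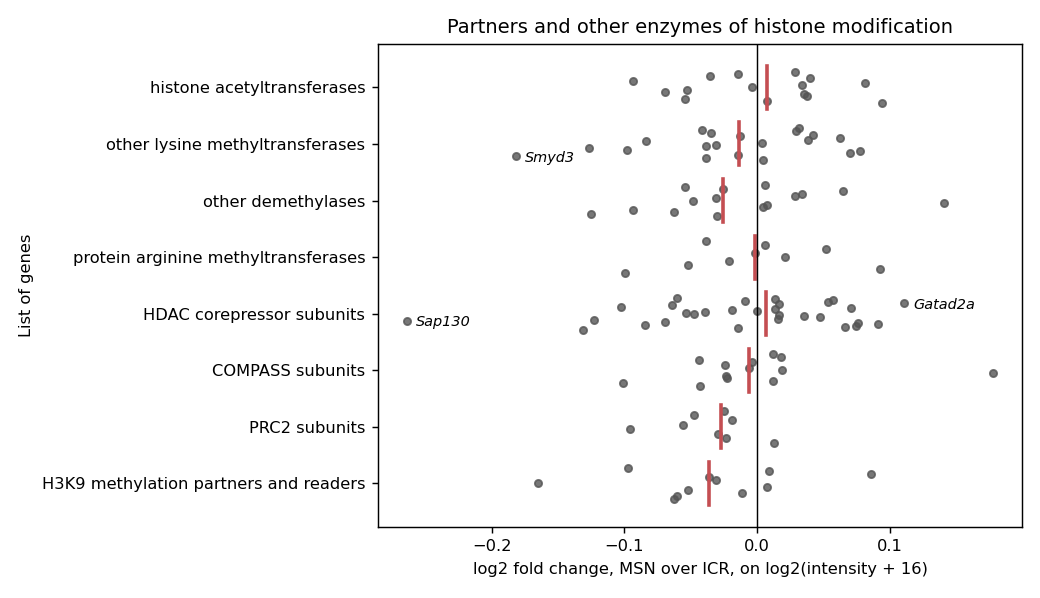
Log2 fold changes (MSN minus ICR, log2(intensity + 16)) of the 8 lists of partner and counterpart genes, with 1 point per gene and a red bar at each median. The points of every list lie on both sides of 0, none passed an adjusted p of 0.05, and Sap130, at -0.26, and Smyd3, at -0.18, lie farthest below.

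Members with a further single-gene cluster gave values of the same sign from it. Besides Hdac1 these were Setd2 at -0.0053 (adjusted p = 0.972), Hdac4, Kmt2d and Setd1b, all between -0.070 and 0.028. Kmt2d, with the lowest of these, had an adjusted p of 0.452. No member shared all 12 of its values with another cluster.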

How the data were processed

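Total RNA of the 12 hippocampi was labelled and hybridized by the authors, who made the deposited intensity values, 1 per transcript cluster and mouse, by PLIER with GC-bin background correction in Affymetrix Power Tools 1.12.0. No genome build enters the values. The platform annotation pairs 23410 of 35556 clusters with a gene, 21789 of them with 1 gene and 1621 with several, and symbols were updated through gene IDs for 21698. For each mouse log2(intensity + 16) was taken and strain was fitted as the only term (lmFit and eBayes of limma 3.58.1, under R 4.3.3). The pseudocount slightly understates the differences of dim genes. The number of arrays limits the precision.

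The mice are separate animals, and P-values set the strain difference against the spread between them. In limma the spread of each cluster is moderated by a value shared over all clusters tested. Members, gene lists and marker lists were chosen with earlier results of these data known, so no list was tested as a set. Named members are the 2 of each enzyme class with the smallest P-values and those with the most unequal spread (2 in each direction), and of each list the 2 with the smallest P-values. Hdac4, Kmt2d and Setd1b were named after their values were seen. Some genes of the partner and marker lists are not analysed here. The values were recomputed without the log2 step, with 1 or 64 as the pseudocount, after quantile normalization or scaling of the arrays to a common median, with array weights, and with the trend and robust options of eBayes. Further fits took all clusters, 1 cluster per gene or the brighter clusters alone, used replicate numbers as a block, or dropped 1 array at a time. RefSeq promoters of GRCm38.p6 were matched by gene, and 12 members without a window have none described.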

Additional observations from a re-analysis of the deposited data

Results flagged for a closer look

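In 7 of the 60 groups of 6 mice that the named members form, 1 mouse stood apart by Dixon's test at 95%, and chance marks about 1 in 20 groups. In MSN mice these were Hdac6, where replicate 3 had 751 against 674 to 701 in the others, and Kmt2e, where replicate 5 had 2107 against 2292 to 2392. In ICR mice Sirt1 was 910 in replicate 6 against 951 to 975, Ehmt1 was 777 in replicate 1 against 860 to 907, and Nsd1 was 1477 in replicate 5 against 1558 to 1576. Replicate 3 of the ICR mice was highest for Ezh2, at 1616 against 1240 to 1291, and for Dot1l, at 995 against 922 to 948. Left out one at a time, these mice moved the log2 fold change of Kmt2e to -0.085, of Sirt1 to -0.10, of Ehmt1 to 0.031, of Dot1l to -0.039, of Nsd1 to -0.030 and of Hdac6 to -0.0059.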

How the results depend on the processing

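No member had an adjusted p under 0.05 under any alternative or without any array, and the lowest was 0.0843, for Hdac10 with array weights. Members with an unadjusted p under 0.05 were fewest, 3, without MSN replicate 6, a smaller share than the 12.9% of all clusters. They numbered 4 without ICR replicate 1 or 2 or with the block, again smaller shares than those of all clusters (11.3%, 13.6% and 12.4%). They were most, 14, with untransformed intensities, a larger share than the 12.6% of all clusters. Over all clusters, 182 calls became 279 with a pseudocount of 64, 315 with array weights and 91 to 210 when an array was left out, with the fewest without MSN replicate 4 (91) or 3 (103) and ICR replicate 6 (93) or 5 (118). Calls split 131 higher to 109 lower after quantile normalization and 115 to 89 after scaling to the same median. Scaling also moved the median log2 fold change of all clusters from -0.0079 to 0.017 and of all members from -0.030 to -0.0038. That of methyltransferases moved to -0.0038, of demethylases to -0.0066, of sirtuins to -0.0086 and of zinc-dependent deacetylases to 0.032. With it Nsd1 turned to 0.010 and Kdm1a to 0.013. Leaving out an array turned values that lie near 0: Hdac6 ran from -0.0059 to 0.043, Hdac11 from -0.021 to 0.037, Kmt2c from -0.0074 to 0.032 and Kdm3a from -0.011 to 0.023. In the partner lists 0 calls became 2 with untransformed intensities (Smyd3, adjusted p = 0.0482, and Gatad2a, 0.0425) and 1, Smyd3, with a pseudocount of 64, with eBayes trend and robust options, among clusters above the median mean and with array weights (adjusted p = 0.0396, 0.0330, 0.0254 and 0.0177). Leaving out an array gave 0 to 1, the 1 being Smyd3 without ICR replicate 2 (adjusted p = 0.0377). Scaling used 1 factor per array, from its median over all 35556 clusters, with or without a gene. It therefore moved bright genes by nearly the same amount. The cause of the other shifts was not tested. The count of members with the higher SD in ICR mice, 26, was 21 to 30 without an array, settings chosen after seeing the data. Whether mice with the same replicate number shared a processing step was not tested. The correlation of their deviations ran from -0.126 to 0.125 and was over 0.1 in 1 of 6 numbers. With the replicate number as a block 42 clusters and 0 members were called.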
